A study of Mus musculus with 9 samples.

Results

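Retinal ganglion cell genes are described here in retinas of mice with oxygen-induced retinopathy, with and without the cytokine gene Il19. A list of 32 symbols known as markers of retinal ganglion cells was looked up by symbol in the deposited expression table of 25108 rows, and 31 were found. The symbol Tusc5 was not found, but its RefSeq synonym Trarg1 stands in the table and is described beside the list without being counted. Of the 31 genes, 30 passed a filter on low values (0.5 FPKM or more in 3 or more libraries) and were tested among 15678 genes. Spp2, which encodes a secreted phosphoprotein, failed the filter, with at most 0.240 FPKM in OIR KO, 0.273 FPKM in OIR WT and 0.0687 FPKM in RA WT.

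The RNA was retinal, from C57BL/6 mice aged 17 postnatal days, and made up 3 groups of 3 libraries. OIR KO mice lacked IL-19 and had oxygen-induced retinopathy, OIR WT mice were wild type with oxygen-induced retinopathy, and RA WT mice were wild type in room air. In oxygen-induced retinopathy, pups breathe high oxygen while retinal vessels are still growing, vessels are lost, and the retina becomes hypoxic and grows abnormal vessels after the return to room air. The allele of the knockout is not described in the labels, and no room air knockout group is part of the analysis, so OIR KO against RA WT differs in both genotype and treatment. The labels do not say whether libraries of a group came from separate animals or from pools, and each p-value therefore reflects only how much these samples scatter, whether the scatter is biological or technical.

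Ganglion cells are the output neurons of the retina: they receive signals from bipolar and amacrine cells and send axons through the optic nerve to the brain. Transcription factors of the POU4F family set up and maintain many of their subtypes, RBPMS marks nearly all of them, and they release glutamate through the vesicular transporter encoded by Slc17a6. They are a small minority of retinal cells, and several of the listed genes, among them Thy1, Uchl1, Tubb3, Stmn2 and Gap43, are also active in other neurons. In RNA from whole retina, fewer ganglion cells and less RNA per cell cannot be told apart.

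Values are FPKM, fragments scaled to gene length and to the fragments mapped, so that levels can be set side by side between genes. How many reads lie behind them is unknown. Differences are on the scale of log2(FPKM + 0.5), with their standard error (SE), from limma fitted to all tested genes with Benjamini-Hochberg adjustment, and a gene was called at an adjusted p under 0.05. The targeted gene Il19 was listed at 0 in all libraries of OIR KO and OIR WT and in RA WT except RA WT 1 (0.0406 FPKM), so it could not check the genotype. The summed level of 4 Y-linked genes was listed at 0 in OIR KO 1 and RA WT 2, was 32.9 FPKM in RA WT 3, and lay between 48.1 and 64.4 FPKM in the other libraries (the labels do not give the sex of the mice). As a check of the tissue, 15 rod markers summed to 12485 to 16883 FPKM in OIR KO, 12971 to 14854 FPKM in OIR WT and 14206 to 15555 FPKM in RA WT, and 12 markers of lens, cornea and pigment epithelium to 76.5 to 115.0, 38.5 to 81.0 and 64.9 to 110.0 FPKM in the same order.

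Promoters of members, called or not, were searched where the RefSeq promoter set used here held them. The search was for the core letters of the POU4F site, ATTAAT, which read the same on both strands. The palindromic consensus site of the early B-cell factors (EBF) was also sought, read on both strands. The set (GRCm38.p6) held 23 promoters for 20 members, each with 250 bases before and 50 after a transcription start. It held none for Pou4f3, Rbpms, Thy1, Nrn1, Chrna6, Chrnb3, Gap43, Stmn2, Jam2, Tppp3 and Syt13, which were not searched. ATTAAT was present in 3 of the 23, against 4.75% of 32851 promoters of the same length, and the EBF site in 0 of the 23, against 0.904%. The upstream windows of the 3 promoters with the POU4F letters, all on the plus strand, are chr2:61804203-61804452 for Tbr1, chr7:51624387-51624636 for the second of the Slc17a6 starts and chr9:118477939-118478188 for Eomes. The capitals mark the match, which begins 31, 83 and 124 bases before the start in Tbr1, Slc17a6 and Eomes in that order. In GENCODE M21 the Tbr1 window lies in an exon of another Tbr1 transcript but in no annotated UTR, the Slc17a6 window lies inside Slc17a6 but in no exon, and the Eomes window lies in no gene.
Tbr1: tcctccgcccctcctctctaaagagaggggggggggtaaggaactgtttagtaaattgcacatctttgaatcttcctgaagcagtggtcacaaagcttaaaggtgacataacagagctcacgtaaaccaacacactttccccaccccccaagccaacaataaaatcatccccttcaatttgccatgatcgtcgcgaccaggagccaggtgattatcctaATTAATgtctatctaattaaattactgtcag
Slc17a6: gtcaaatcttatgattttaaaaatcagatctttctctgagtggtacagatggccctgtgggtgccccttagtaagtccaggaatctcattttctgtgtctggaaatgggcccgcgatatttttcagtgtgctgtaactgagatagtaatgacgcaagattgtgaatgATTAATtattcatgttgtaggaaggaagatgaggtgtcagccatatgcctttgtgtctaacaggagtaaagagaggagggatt
Eomes: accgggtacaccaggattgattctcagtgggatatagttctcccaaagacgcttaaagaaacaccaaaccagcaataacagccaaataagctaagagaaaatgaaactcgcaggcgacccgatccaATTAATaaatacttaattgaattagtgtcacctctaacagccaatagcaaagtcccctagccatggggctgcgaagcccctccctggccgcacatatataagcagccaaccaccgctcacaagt
Tbr1 and Slc17a6 are among the 12 genes with a promoter here that were lower in OIR WT than in RA WT by the test, and Eomes was not called. These letters are a description of the windows and not of binding.

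In OIR WT against RA WT, 18 of the 30 tested ganglion cell genes fell and 0 rose. That is 60% of the members, against 7.92% of all tested genes that fell and 8.04% that rose. The median log2 difference of the 30 members was -0.64, beside 0.02 over all tested genes. Among the 18 genes that fell, the OIR WT mean was between 38.5% and 70.6% of the RA WT mean, with a median of 54.9%. In 24 of the 30 members every OIR WT library lay below every RA WT library, against 17.2% of all tested genes with that order. In OIR KO against RA WT, 20 members fell and 0 rose, which is 66.7%, against 5.69% and 4.75% of all tested genes. The OIR KO means of those 20 genes were between 32.0% and 62.4% of RA WT, with a median of 47.9%, and the median log2 difference of all 30 members was -0.75, beside 0.02 over all genes. In 27 of the 30 members every OIR KO library lay below every RA WT library, against 15.4% of all tested genes. These 2 comparisons share the RA WT libraries.

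**Figure D1:**
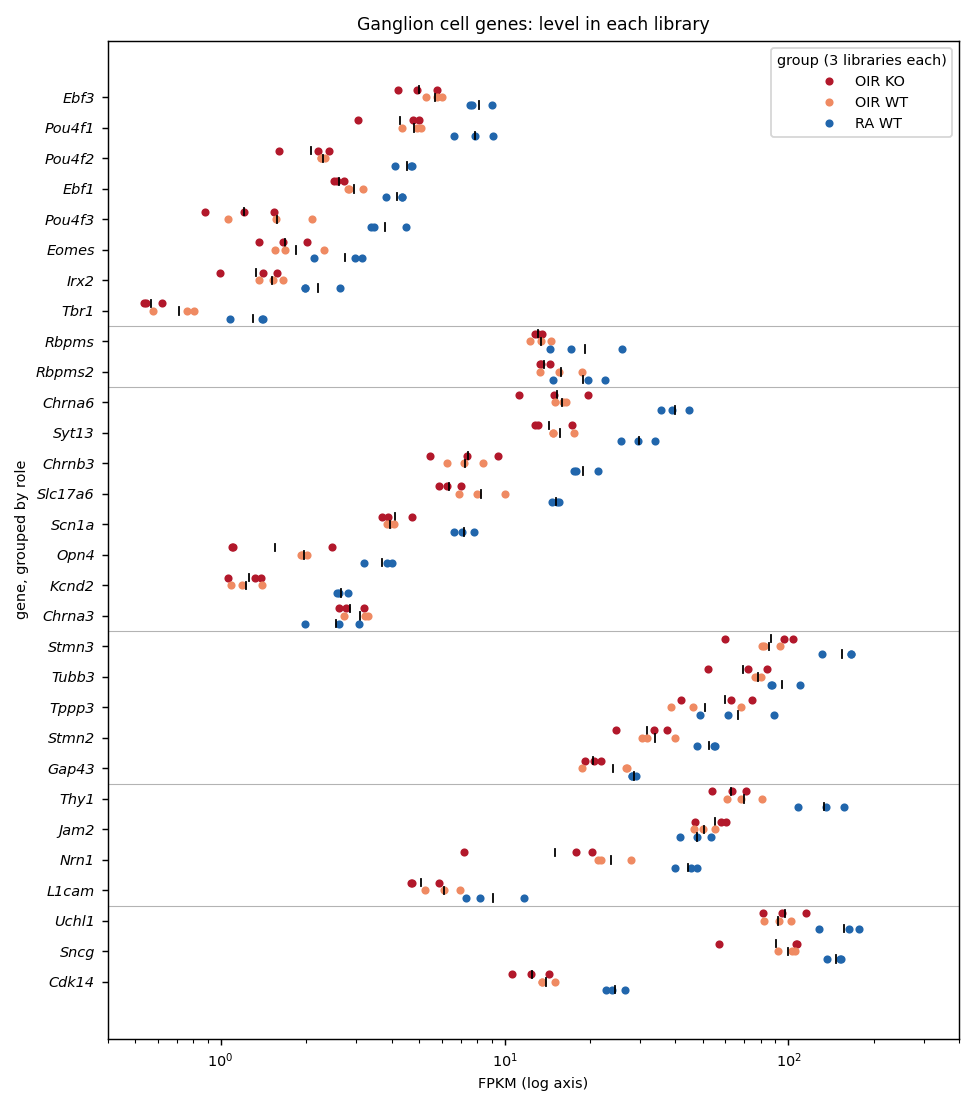
Level of each of the 30 tested ganglion cell genes in every library, in FPKM on a log axis, with genes grouped by role. Points are libraries, 3 per group in the order OIR KO, OIR WT and RA WT from top to bottom, and black ticks are group means. The RA WT points of most genes lie to the right of both retinopathy groups, while Chrna3, Jam2 and Tppp3 overlap RA WT in both groups, and Rbpms, Rbpms2 and Eomes in OIR WT.

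The level of the members in RA WT reached from 0.0229 FPKM for Spp2 to 157 FPKM for Uchl1. Behind Uchl1 came Stmn3 at 155 FPKM, Sncg at 147 FPKM and Thy1 at 133 FPKM, and the SDs of these 4 genes, between 9.36 and 25.5 FPKM, span the gaps between neighbours in that order. The ganglion cell transcription factors were all below 10 FPKM, from 1.30 FPKM for Tbr1 to 8.11 FPKM for Ebf3.

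Of the 8 transcription factors, 6 fell in OIR KO against RA WT and 6 in OIR WT against RA WT. In each case these were the factors other than Eomes and Irx2. The shares of all tested genes that fell were 5.69% and 7.92% in the same order. Pou4f2, a POU-domain factor needed for the differentiation and survival of most ganglion cells (chromosome 8), was at 2.40, 1.61 and 2.21 FPKM in OIR KO, 2.26, 2.26 and 2.34 FPKM in OIR WT, and 4.13, 4.72 and 4.70 FPKM in RA WT. Both retinopathy groups were below every RA WT library and overlapped each other, and the log2 difference was -0.97 in OIR KO against RA WT (SE 0.14, adjusted p = 0.00477) and -0.85 in OIR WT against RA WT (SE 0.14, adjusted p = 0.0055). Its relative Pou4f1, the family member that also marks sensory ganglia, was at 4.77, 3.04 and 5.0 FPKM in OIR KO, 4.92, 4.36 and 5.10 FPKM in OIR WT, and 6.62, 7.90 and 9.13 FPKM in RA WT. Pou4f1 fell by 0.83 on the log2 scale in OIR KO against RA WT (SE 0.18, adjusted p = 0.0197) and by 0.66 in OIR WT against RA WT (SE 0.18, adjusted p = 0.0356). Pou4f3, the third member, which is also needed by hair cells of the inner ear, was at 1.21, 0.884 and 1.54 FPKM in OIR KO, 1.06, 1.57 and 2.10 FPKM in OIR WT, and 3.38, 3.48 and 4.51 FPKM in RA WT. With means at 32.0% of RA WT in OIR KO and 41.7% in OIR WT, its log2 differences were -1.33 (SE 0.22, adjusted p = 0.00684) and -1.07 (SE 0.22, adjusted p = 0.0113). The ratio of Pou4f3 to Pou4f1 was between 0.255 and 0.308 in OIR KO, 0.216 and 0.412 in OIR WT, and 0.441 and 0.510 in RA WT, with no overlap between RA WT and the other groups. The ratio of Pou4f2 to Pou4f1 did overlap, at 0.442 to 0.531 in OIR KO, 0.459 to 0.518 in OIR WT and 0.515 to 0.623 in RA WT. These ratios were chosen after the values were seen.

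The T-box factors mark small subsets of ganglion cells. Tbr1, found in subtypes with dendrites in the OFF layer, was at 0.622, 0.546 and 0.536 FPKM in OIR KO, 0.808, 0.759 and 0.580 FPKM in OIR WT, and 1.08, 1.41 and 1.40 FPKM in RA WT. Tbr1 fell in both comparisons, by 0.75 in OIR KO (adjusted p = 0.0141) and by 0.56 in OIR WT (adjusted p = 0.0302), on a scale that understates changes at such low levels. Eomes, also called Tbr2 and needed for the melanopsin-expressing ganglion cells, was at 1.66, 1.37 and 2.01 FPKM in OIR KO, 1.68, 1.55 and 2.31 FPKM in OIR WT, and 2.14, 2.97 and 3.15 FPKM in RA WT. It was not called in either comparison (adjusted p = 0.0783 in OIR KO and 0.118 in OIR WT), and RA WT 1 lay inside the OIR WT range. Opn4, the photopigment melanopsin of the intrinsically photosensitive ganglion cells, was at 1.1, 1.11 and 2.46 FPKM in OIR KO, 1.94, 1.92 and 2.02 FPKM in OIR WT, and 3.19, 4.03 and 3.85 FPKM in RA WT. Opn4 fell in both groups, with log2 differences of -1.08 in OIR KO (SE 0.22, adjusted p = 0.0165) and -0.76 in OIR WT (SE 0.22, adjusted p = 0.0453), and OIR KO 3 stood above the other 2 knockout libraries.

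Ebf1 and Ebf3, helix-loop-helix factors that amacrine cells also use, fell to 62.4% and 61.4% of the RA WT mean in OIR KO, and to 70.6% and 70.2% in OIR WT, with adjusted p between 0.013 and 0.0347. Ebf1 was at 2.51, 2.58 and 2.73 FPKM in OIR KO, 2.84, 2.82 and 3.18 FPKM in OIR WT, and 4.36, 4.35 and 3.82 FPKM in RA WT. Ebf3 was at 4.91, 4.23 and 5.80 FPKM in OIR KO, 6.01, 5.80 and 5.28 FPKM in OIR WT, and 9.07, 7.68 and 7.58 FPKM in RA WT. Irx2, an Iroquois homeobox factor, was at 1.41, 0.994 and 1.58 FPKM in OIR KO, 1.53, 1.37 and 1.66 FPKM in OIR WT, and 1.98, 1.99 and 2.64 FPKM in RA WT. Its groups were separate from RA WT, but it was not called (adjusted p = 0.0576 in OIR KO and 0.126 in OIR WT).

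Neither of the RNA-binding markers was called. Rbpms, a widely used marker of all ganglion cells, was at 13.6, 12.8 and 13.1 FPKM in OIR KO, 13.4, 14.6 and 12.3 FPKM in OIR WT, and 14.5, 17.2 and 26.0 FPKM in RA WT. The log2 difference was -0.48 in OIR KO (SE 0.18, adjusted p = 0.112) and -0.46 in OIR WT (SE 0.18, adjusted p = 0.11), and RA WT 3 was the highest of the 9 libraries. Its paralog Rbpms2 was at 13.4, 14.5 and 13.3 FPKM in OIR KO, 15.5, 13.3 and 18.7 FPKM in OIR WT, and 14.8, 19.6 and 22.5 FPKM in RA WT. Rbpms is also made by smooth muscle and pericytes, and the summed level of 10 pericyte and smooth muscle markers was 84.1 to 142.0 FPKM in OIR KO, 104.3 to 155.9 FPKM in OIR WT and 44.8 to 58.6 FPKM in RA WT. Of those markers, 7 rose and 0 fell in OIR WT against RA WT, beside 8.04% and 7.92% of all tested genes, and none was at 0. Their part in the level of Rbpms was not tested.

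Of the 8 genes of transmission and excitability, 7 fell in each retinopathy group, with Chrna3 as the exception in both. Over all tested genes 5.69% fell in OIR KO and 7.92% in OIR WT. Chrna6 and Chrnb3 encode nicotinic acetylcholine receptor subunits that assemble together in ganglion cells, and they were the members with the lowest share of the RA WT mean in OIR WT. Chrna6 was at 14.9, 11.2 and 19.7 FPKM in OIR KO, 15.1, 16.1 and 16.5 FPKM in OIR WT, and 35.6, 39.0 and 44.7 FPKM in RA WT. Chrnb3 was at 7.38, 5.48 and 9.48 FPKM in OIR KO, 6.28, 8.39 and 7.19 FPKM in OIR WT, and 17.5, 17.8 and 21.4 FPKM in RA WT. Every retinopathy library was below every room air library for both genes. The log2 difference of Chrna6 was -1.38 in OIR KO (SE 0.17, adjusted p = 0.00315) and -1.29 in OIR WT (SE 0.17, adjusted p = 0.00277), and that of Chrnb3 was -1.32 in OIR KO (SE 0.18, adjusted p = 0.00405) and -1.32 in OIR WT (SE 0.18, adjusted p = 0.00283).

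Chrna6 and Chrnb3 lie end to end on chromosome 8 of GRCm38 (Chrnb3 at 27368711 to 27399730 on the plus strand, Chrna6 at 27403212 to 27413944 on the minus strand), with 3.48 kb between their 3′ ends. The ratio of their FPKM stayed between 1.92 and 2.41 in all 9 libraries. Chrna3, an alpha subunit shared with autonomic ganglia, was at 3.20, 2.62 and 2.77 FPKM in OIR KO, 3.23, 2.73 and 3.30 FPKM in OIR WT, and 1.98, 2.62 and 3.07 FPKM in RA WT. Its groups overlapped, and its log2 difference was 0.15 in OIR KO (95% interval -0.20 to 0.50, adjusted p = 0.591) and 0.24 in OIR WT (95% interval -0.11 to 0.59, adjusted p = 0.338). The ratio of Chrna6 to Chrna3 was between 4.27 and 7.11 in OIR KO, 4.68 and 5.90 in OIR WT, and 14.6 and 17.9 in RA WT; this ratio too was chosen after the values were seen.

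Slc17a6, the vesicular glutamate transporter VGLUT2 of ganglion cells, was at 6.26, 5.90 and 7.01 FPKM in OIR KO, 7.97, 6.90 and 10 FPKM in OIR WT, and 14.7, 15.5 and 15.3 FPKM in RA WT. The RA WT libraries lay close together and well above both retinopathy groups, with log2 differences of -1.19 in OIR KO (SE 0.13, adjusted p = 0.0018) and -0.85 in OIR WT (SE 0.13, adjusted p = 0.00412). Scn1a, the voltage-gated sodium channel Nav1.1, was at 3.70, 3.88 and 4.72 FPKM in OIR KO, 4.08, 3.94 and 3.87 FPKM in OIR WT, and 6.65, 7.80 and 7.11 FPKM in RA WT. Kcnd2, the A-type potassium channel Kv4.2, was at 1.39, 1.06 and 1.32 FPKM in OIR KO, 1.09, 1.19 and 1.40 FPKM in OIR WT, and 2.56, 2.81 and 2.61 FPKM in RA WT. Both channel genes fell, Scn1a by 0.74 in OIR KO and 0.78 in OIR WT on the log2 scale, and Kcnd2 by 0.85 and 0.88 in the same order (adjusted p between 0.00368 and 0.00653). Syt13, an atypical synaptotagmin of the secretory pathway, was at 12.8, 13.1 and 17.3 FPKM in OIR KO, 14.8, 14.8 and 17.6 FPKM in OIR WT, and 25.8, 29.4 and 33.9 FPKM in RA WT, and fell by 1.02 in OIR KO (adjusted p = 0.00405) and by 0.89 in OIR WT (adjusted p = 0.00447).

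**Figure D2:**
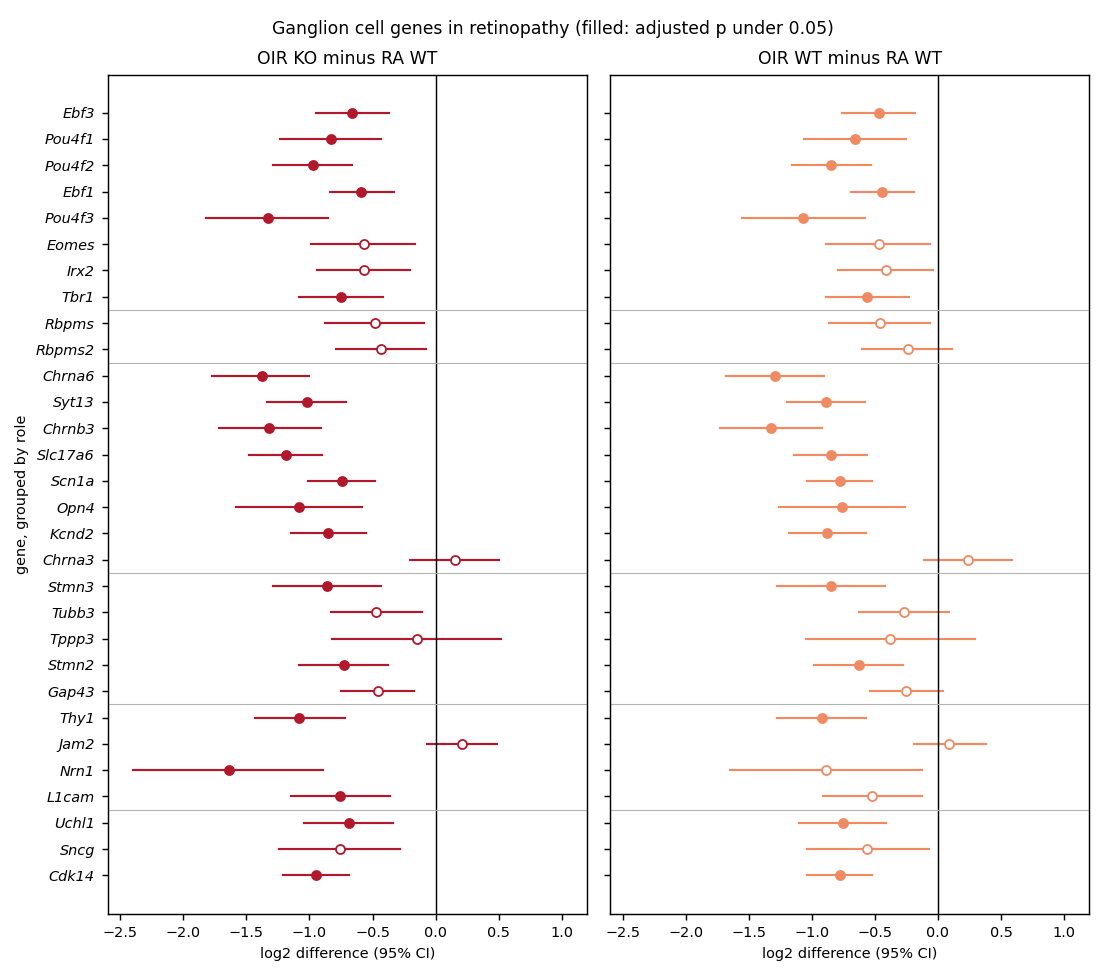
Log2 difference of each tested ganglion cell gene in OIR KO against RA WT and in OIR WT against RA WT, on the log2(FPKM + 0.5) scale, with 95% confidence intervals from limma (3 libraries per group). Filled points were called. Values left of 0 are lower in retinopathy; 28 of the 30 genes lie left of 0 in each comparison, and Chrna3 and Jam2 lie right of it in both.

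The genes of the axon and cytoskeleton moved unevenly. Stmn3 and Stmn2, stathmins that bind tubulin and regulate microtubules in growing neurites, fell in both comparisons. Stmn3 was at 96.6, 60 and 103 FPKM in OIR KO, 80.5, 82.2 and 93.6 FPKM in OIR WT, and 131, 166 and 167 FPKM in RA WT (log2 difference -0.86, SE 0.19, adjusted p = 0.0227 in OIR KO, and -0.85, SE 0.19, adjusted p = 0.0181 in OIR WT). Stmn2 was at 33.5, 24.6 and 37.3 FPKM in OIR KO, 31.8, 30.4 and 39.8 FPKM in OIR WT, and 47.6, 55.1 and 54.6 FPKM in RA WT (log2 difference -0.73, SE 0.16, adjusted p = 0.0192 in OIR KO, and -0.63, SE 0.16, adjusted p = 0.0253 in OIR WT). The other 3 were not called in either group. Gap43, the growth cone protein that rises when axons regrow, was at 21.8, 19.2 and 20.7 FPKM in OIR KO, 26.7, 18.8 and 26.9 FPKM in OIR WT, and 28.1, 28.2 and 29.1 FPKM in RA WT (adjusted p = 0.0519 in OIR KO and 0.228 in OIR WT). Tubb3, the neuronal beta-tubulin, was at 71.9, 51.9 and 84.1 FPKM in OIR KO, 76.4, 77.2 and 80.2 FPKM in OIR WT, and 86.7, 87.8 and 109 FPKM in RA WT, with adjusted p of 0.0958 in OIR KO and 0.292 in OIR WT. For both genes the RA WT libraries were the highest 3 of the 9. Tppp3, a tubulin polymerization-promoting protein, overlapped in all groups, at 41.8, 74.4 and 62.6 FPKM in OIR KO, 67.8, 38.5 and 46.0 FPKM in OIR WT, and 49.0, 61.1 and 89.1 FPKM in RA WT.

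Of the 4 surface proteins, only Thy1 was called in both comparisons. Thy1, a glycolipid-anchored glycoprotein long used to label and purify ganglion cells, was at 63.2, 53.7 and 70.7 FPKM in OIR KO, 68.0, 60.6 and 80.6 FPKM in OIR WT, and 108, 136 and 156 FPKM in RA WT. It fell to 46.9% of the RA WT mean in OIR KO (log2 difference -1.08, SE 0.16, adjusted p = 0.00493) and to 52.3% in OIR WT (log2 difference -0.92, SE 0.16, adjusted p = 0.00611). Nrn1, or neuritin, a glycolipid-anchored protein that promotes neurite growth, was at 20.3, 17.8 and 7.19 FPKM in OIR KO, 21.4, 21.9 and 28.0 FPKM in OIR WT, and 39.7, 45.5 and 47.8 FPKM in RA WT. Both retinopathy groups were below RA WT, but the spread of Nrn1 was wide: it fell in OIR KO (log2 difference -1.64, SE 0.33, adjusted p = 0.0192) and was not called in OIR WT (-0.89, SE 0.33, adjusted p = 0.108). In a fit of only OIR WT and RA WT, Nrn1 and Sncg were called (adjusted p = 0.00371 and 0.00809), while Ebf1 and Tbr1 were lost (0.0527 and 0.05). In a fit of only OIR KO and RA WT, the calls of Nrn1 and Stmn3 were lost (adjusted p = 0.0531 and 0.0526), and Gap43 was called (0.0246). Nrn1 shares 501 exonic bases with Fars2 on the other strand, which averaged 5.45 FPKM, and whether the counting used strand is unknown. The same limit holds for Ebf3, Uchl1, Opn4 and Eomes. They share 355, 295, 130 and 118 exonic bases with the antisense genes Gm45278, Uchl1os, Gm49012 and Gm33460.

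L1cam, an adhesion molecule of growing axons on chromosome X, was at 4.69, 4.71 and 5.88 FPKM in OIR KO, 6.96, 6.11 and 5.24 FPKM in OIR WT, and 11.7, 8.19 and 7.34 FPKM in RA WT. It fell in OIR KO (log2 difference -0.76, SE 0.18, adjusted p = 0.0256) and was not called in OIR WT (-0.52, SE 0.18, adjusted p = 0.0742). It shares 100 exonic bases with Arhgap4 on the same strand. Jam2, a junctional adhesion molecule that endothelial cells also make, was at 60.5, 46.9 and 58.1 FPKM in OIR KO, 50.2, 55.0 and 46.6 FPKM in OIR WT, and 53.5, 47.5 and 41.5 FPKM in RA WT. With overlapping groups, its log2 difference was 0.21 in OIR KO (95% interval -0.07 to 0.49) and 0.09 in OIR WT (95% interval -0.19 to 0.38). The summed level of 12 endothelial markers was 147.2 to 201.4 FPKM in OIR KO, 119.6 to 159.9 FPKM in OIR WT and 88.9 to 120.2 FPKM in RA WT. Of these, 5 rose and 1 fell in OIR WT against RA WT, beside 8.04% and 7.92% of all tested genes. Their part in the level of Jam2 was not tested.

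The remaining members are soluble and signalling proteins. Uchl1, a ubiquitin hydrolase abundant in neurons, was at 94.7, 81.5 and 115 FPKM in OIR KO, 92.6, 81.7 and 102 FPKM in OIR WT, and 128, 164 and 178 FPKM in RA WT. Cdk14, a cyclin-dependent kinase of the Wnt pathway, was at 12.4, 10.6 and 14.4 FPKM in OIR KO, 13.6, 13.5 and 15.0 FPKM in OIR WT, and 24.0, 22.8 and 26.5 FPKM in RA WT. Both fell in both comparisons, Uchl1 to 62.0% of RA WT in OIR KO and 58.8% in OIR WT (adjusted p = 0.0234 and 0.0123), and Cdk14 to 51.0% and 57.4% (adjusted p = 0.0028 and 0.00362). Sncg, or gamma-synuclein, was at 106, 56.8 and 108 FPKM in OIR KO, 91.9, 103 and 105 FPKM in OIR WT, and 136, 152 and 153 FPKM in RA WT. Every retinopathy library of Sncg was below RA WT, but it was not called (adjusted p = 0.054 in OIR KO and 0.114 in OIR WT), and OIR KO 2 was the lowest library by a wide margin. Scaling by TMM, a normalization to a trimmed mean ratio, put Sncg, Gap43 and Irx2 past the threshold in OIR KO against RA WT (adjusted p = 0.0453, 0.0317 and 0.0464). Trarg1, a regulator of glucose transporter traffic known from fat tissue, was at 7.83, 5.32 and 8.45 FPKM in OIR KO, 6.73, 6.88 and 9.60 FPKM in OIR WT, and 11.2, 12.4 and 16.6 FPKM in RA WT, and fell in both comparisons (adjusted p = 0.0294 in OIR KO and 0.0355 in OIR WT). The Trarg1 call was lost in 4 of 6 cases with a library left out in each comparison (adjusted p up to 0.102 in OIR KO and 0.123 in OIR WT), without the filter on low values (0.0508 in OIR KO and 0.0579 in OIR WT) and, in OIR WT, with the Y-linked covariate (0.0884).

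Leaving out each library in turn kept 11 of the 18 calls in OIR WT against RA WT every time: Pou4f2, Pou4f3, Thy1, Slc17a6, Chrna6, Chrnb3, Uchl1, Scn1a, Kcnd2, Cdk14 and Syt13. The other 7 (Pou4f1, Stmn2, Stmn3, Opn4, Ebf1, Ebf3 and Tbr1) were lost without RA WT 2 (adjusted p from 0.0638 to 0.124) and without OIR WT 1 (0.0664 to 0.122), leaving 11. Between 3 and 6 of them were lost when any of OIR WT 2, OIR WT 3, RA WT 1 and RA WT 3 was left out. Opn4 and Ebf3 were lost in 6 of the 6 cases (lowest adjusted p 0.0599 and 0.0613). Pou4f1, Ebf1 and Tbr1 were lost in 5, Stmn2 in 4 and Stmn3 in 3. Those 7 were also lost with the summed Y-linked level as a covariate (adjusted p from 0.0502 to 0.0936). In OIR KO against RA WT, 11 of the 20 calls were kept without each library in turn, and the count dropped to 13 without RA WT 3. Uchl1 and Opn4 were each lost in 4 of the 6 cases (without RA WT 2, RA WT 3, OIR KO 1 or OIR KO 2, with adjusted p up to 0.0873 for Uchl1 and 0.0636 for Opn4). L1cam was lost in 3, without RA WT 1, OIR KO 1 or OIR KO 2 (up to 0.0846). Pou4f1, Nrn1, Stmn2 and Stmn3 were lost without RA WT 2 or RA WT 3 (0.0541 to 0.0862), Ebf1 without OIR KO 1 (0.0521) and Tbr1 without RA WT 3 (0.054).

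No ganglion cell gene was called in OIR KO against OIR WT. By limma 0 of 30 members passed, beside 0.134% of all tested genes (21 genes), and 1 of 30 had an unadjusted p under 0.05, beside 9.91% of all genes. That gene was Slc17a6, with a log2 difference of -0.34 (95% interval -0.63 to -0.05, unadjusted p = 0.0257, adjusted p = 0.428). The median difference of the 30 members was -0.15, beside -0.003 over all genes. Of the 30, 24 were negative, beside 7948 of 15678 tested genes. OIR KO 2 was the lowest of its group in 21 members, with a median log2 deviation from the RA WT mean of -0.97. The deviations of OIR KO 1 and 3 were -0.67 and -0.54, beside -0.69, -0.78 and -0.59 in OIR WT 1, 2 and 3. In 2 members, Nrn1 and Ebf1, every OIR KO library was below every OIR WT library, against 7.98% of all genes. Nrn1 had the widest difference (-0.75, 95% interval -1.51 to 0.00, adjusted p = 0.506). OIR KO 3, at 7.19 FPKM, was the low library of Nrn1, and without it the difference was -0.31 (adjusted p = 0.634). For the other 29 members the 95% interval lay within 1 log2 unit on either side of 0, so the data bound the difference between genotypes without showing that it is absent.

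**Figure D3:**
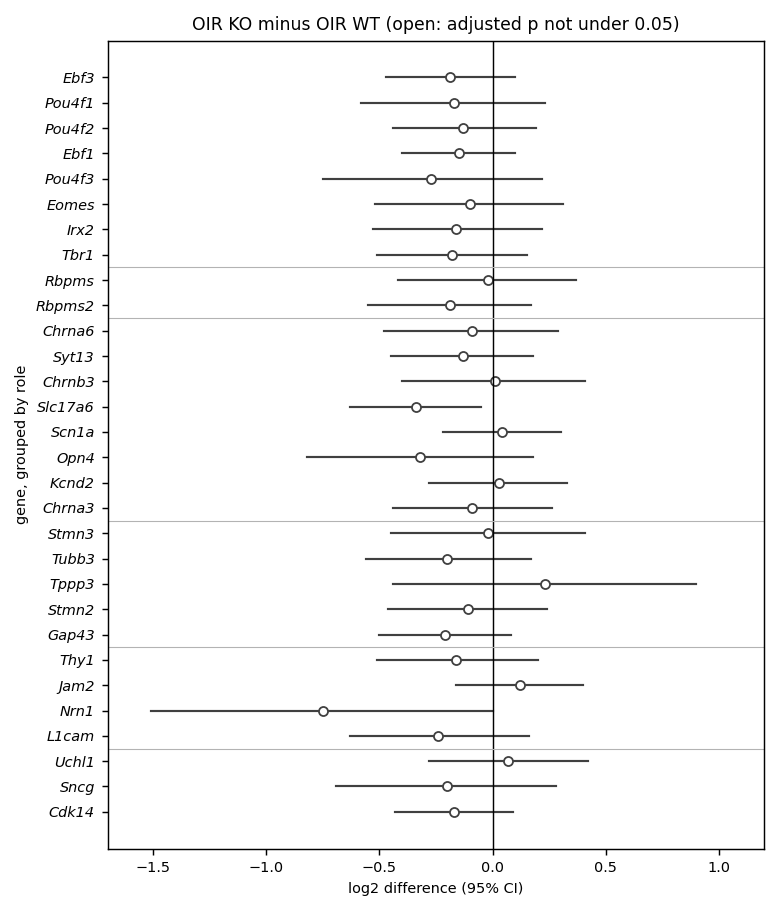
Log2 difference of each tested ganglion cell gene in OIR KO against OIR WT, on the log2(FPKM + 0.5) scale, with 95% confidence intervals from limma (3 libraries per group). Values left of 0 are lower in OIR KO. Of the 30 points 24 lie left of 0, beside 7948 of 15678 tested genes. Of the members 0 are called, and Nrn1 has the widest interval.

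Against the RA WT mean, the median log2 deviation of the 30 members was -0.67, -0.97 and -0.54 in OIR KO 1, 2 and 3, -0.69, -0.78 and -0.59 in OIR WT 1, 2 and 3, and -0.14, 0.04 and 0.12 in RA WT 1, 2 and 3. OIR KO 2 was the lowest of its group in 21 members, OIR WT 2 in 15 and RA WT 1 in 25. OIR KO 3 was the highest of its group in 20 members, OIR WT 3 in 22 and RA WT 3 in 19. The median coefficient of variation of the members was 17.4% in OIR KO, 10.2% in OIR WT and 12.8% in RA WT. Within groups, the summed level of 23 amacrine markers was also lowest in OIR KO 2 (481.9 FPKM, against 587.7 and 637.8 FPKM in the other OIR KO libraries) and in RA WT 1 (845.5 FPKM, against 896.6 and 938.1 FPKM), but not in OIR WT 2. The summed bipolar, horizontal cell and rod markers were also lowest of the group in OIR KO 2. The summed cone markers and ganglion cell subtype genes were highest there. The part of library makeup in these deviations was not tested.

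**Figure D4:**
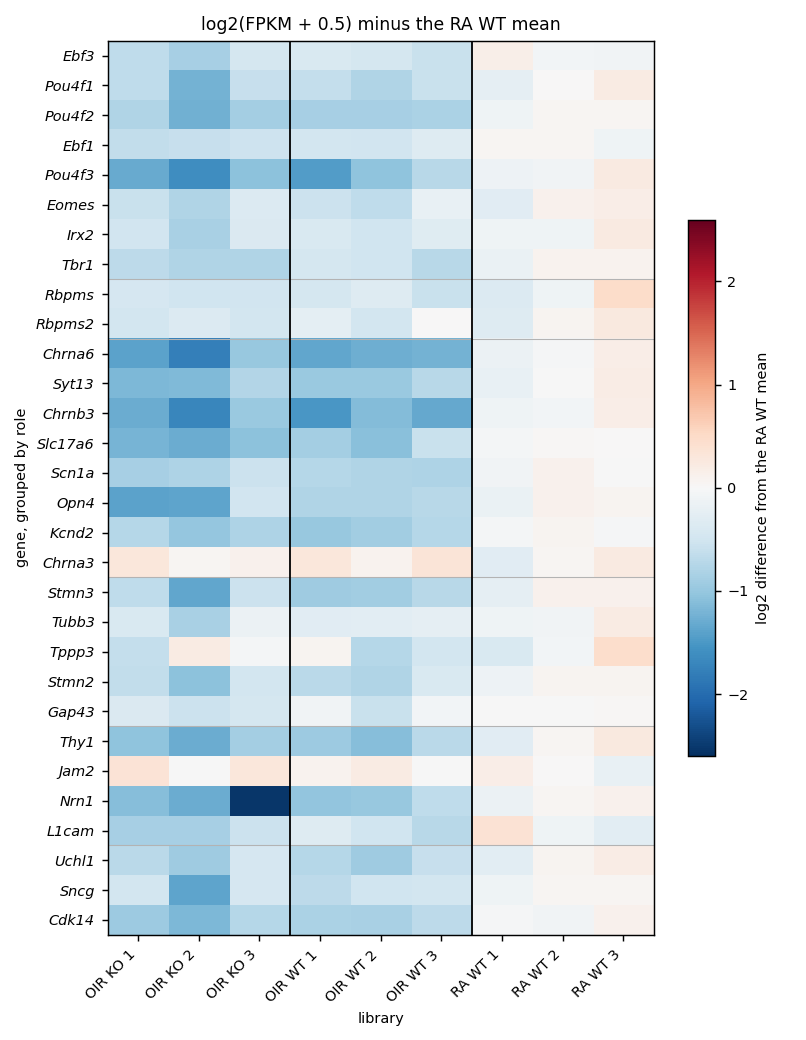
Deviation of each tested ganglion cell gene from its RA WT mean, as a log2 difference (colour scale), in each of the 9 libraries, ordered OIR KO, OIR WT and RA WT from left to right, with genes grouped by role. The OIR KO and OIR WT columns are negative for most genes, OIR KO 2 most of all (median -0.97), and the RA WT columns lie near 0.

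Other inner retinal neurons were compared by the same counts. Of 21 tested amacrine markers, 12 fell and 1 rose in OIR WT against RA WT (median -0.44), and this list holds Ebf1 and Ebf3 too. Its largest fall was that of Th, the rate-limiting enzyme of dopamine synthesis (log2 difference -1.01, SE 0.25, adjusted p = 0.0228), and the gene that rose was Npy, neuropeptide Y (0.54, SE 0.16, adjusted p = 0.0424). Of 20 bipolar markers 8 fell (median -0.37), led by Gng13, a G protein gamma subunit of ON bipolar cells (-1.13, SE 0.19, adjusted p = 0.00635). Of 10 horizontal cell markers 5 fell and 1 rose (median -0.48). The largest fall was that of Nefm, which is also on the neurofilament list below (-0.87, SE 0.24, adjusted p = 0.0424). Ndrg1 rose (0.37, SE 0.09, adjusted p = 0.0217). Of 14 cone markers 3 fell and 1 rose (median -0.14), and of 15 rod markers 0 were called by limma (median -0.01). An unadjusted p under 0.05 was found for 2 rod markers, beside 4771 of 15678 tested genes in this comparison. Each share that fell in OIR WT, other than that of rods, was above the 7.92% of all genes. Lower values were thus not particular to the ganglion cell list, and the difference between the lists was not tested. In OIR KO against RA WT, 12 amacrine, 4 bipolar, 5 horizontal cell, 2 cone and 0 rod markers fell. Over all tested genes 5.69% fell there. By limma, Th, Npy, Gng13 and Ndrg1 were not called in OIR KO (adjusted p = 0.0595, 0.519, 0.0788 and 0.0865).

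**Figure D5:**
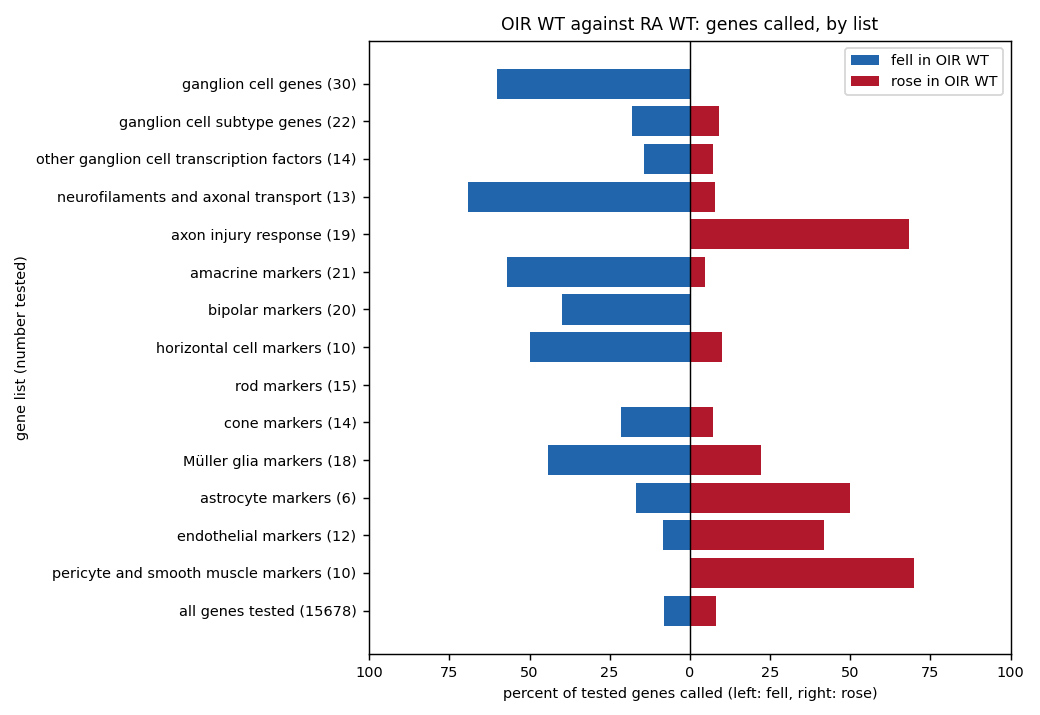
Percent of the tested genes of each list that limma called in OIR WT against RA WT, with the number tested in brackets; bars to the left are genes that fell and bars to the right are genes that rose. Of the ganglion cell genes 60% fell and 0 rose, no rod marker was called, 68.4% of the axon injury genes rose, and the bottom bar gives all tested genes.

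Further ganglion cell and axon genes were less uniform. Of 13 genes of neurofilaments and axonal transport, 9 fell and 1 rose in OIR WT against RA WT (median -0.51), or 69.2% and 7.69%. Over all tested genes 7.92% fell and 8.04% rose in that comparison. Nefl, the light neurofilament chain, was at 62.4, 50.5 and 81.2 FPKM in OIR KO, 88.0, 79.4 and 100 FPKM in OIR WT, and 164, 156 and 200.1 FPKM in RA WT. Nefl fell in OIR KO (-1.43, SE 0.17, adjusted p = 0.00235) and in OIR WT (-0.96, SE 0.17, adjusted p = 0.00679). Mapt, which encodes the axonal microtubule protein tau, went the other way, at 29.7, 16.8 and 32.2 FPKM in OIR KO, 36.4, 25.6 and 41.7 FPKM in OIR WT, and 9.99, 5.09 and 11.5 FPKM in RA WT. It rose in OIR KO (1.53, SE 0.35, adjusted p = 0.0284) and in OIR WT (1.95, SE 0.35, adjusted p = 0.00905), with no overlap with RA WT. Of 14 other ganglion cell transcription factors, 2 fell and 1 rose in OIR WT (median 0.06). Those shares, 14.3% and 7.14%, stand beside the same 7.92% and 8.04% of all tested genes. Isl2, a LIM homeobox factor, fell (-0.74, SE 0.20, adjusted p = 0.0358) and Klf7, a Krüppel-like factor of axon growth, rose (0.43, SE 0.11, adjusted p = 0.0278). In OIR KO, limma also called Isl2 as lower (adjusted p = 0.0369) but did not call Klf7 (0.517).

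Of 22 tested genes that mark ganglion cell subtypes, 4 fell and 2 rose in OIR WT against RA WT (median -0.26). That is 18.2% and 9.09%, beside 7.92% and 8.04% of all tested genes. Adcyap1, the peptide PACAP of melanopsin-expressing ganglion cells, was at 0.186, 0.512 and 0.255 FPKM in OIR KO, 0.469, 0.269 and 0.492 FPKM in OIR WT, and 0.856, 1.30 and 2.02 FPKM in RA WT, and fell in OIR KO (-1.18, adjusted p = 0.0169) and in OIR WT (-1.02, adjusted p = 0.0218). Serpine2, a serine protease inhibitor, rose in OIR KO (0.70, adjusted p = 0.0379) and in OIR WT (0.74, adjusted p = 0.0228). Of 19 tested genes of the response to axon injury, 13 rose and 0 fell in OIR WT against RA WT (median 0.98). In OIR KO against RA WT 3 rose and 1 fell (median 0.55). Over all tested genes, 8.04% rose in OIR WT, and 4.75% rose and 5.69% fell in OIR KO. By limma, 15 of the 19 had an unadjusted p under 0.05 in each comparison, beside 4771 (OIR WT) and 4320 (OIR KO) of 15678 tested genes. In each, 15 had every retinopathy library above every RA WT library, beside 2792 and 2718 of all tested genes. The difference between these counts of calls was not tested. Hmox1, heme oxygenase, had the largest difference in OIR WT (4.52, SE 0.84, adjusted p = 0.0116) and was not called in OIR KO (3.02, SE 0.84, adjusted p = 0.0588), at 14.8, 61.9 and 4.86 FPKM in OIR KO, 64.1, 22.2 and 78.2 FPKM in OIR WT, and 1.5, 1.07 and 2.54 FPKM in RA WT. Many genes of this list are also active in glia and vessels. In OIR KO against OIR WT, limma called 0 genes of these 4 lists. An unadjusted p under 0.05, reached by 9.91% of all tested genes, was found for 5 of the 19 axon injury genes (median of the list -0.39), 4 of the 13 neurofilament and transport genes (median -0.33), 4 of the 22 subtype genes (median -0.05) and 2 of the 14 other transcription factors (median -0.15).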

How the data were processed

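Per the labels' protocols, Trizol-extracted RNA of frozen retinas went into NEBNext Ultra libraries. The submitters' processing notes name HISAT2 and the mouse build GRCm38. The authors deposited 1 table of FPKM values for 9 libraries; quantifier, annotation release, strand setting and read depth are unknown, so no count model or counting interval was used. The scale was log2(FPKM + 0.5), which understates changes of low genes. The 15678 of 25108 genes that reached 0.5 FPKM in 3 or more libraries were fitted with limma 3.58.1 in R 4.3.3, 1 mean per group over all 9 libraries, empirical Bayes with trend and robust options, two-sided, with Benjamini-Hochberg adjustment over all tested genes and a threshold of 0.05. The fit was tested on simulated data. Coordinates are from GENCODE M21, promoters from RefSeq (GRCm38.p6). Same-numbered libraries of different groups did not deviate together (r from -0.353 to 0.134, over 0.1 in 1 of 9 pairs), so the main fit has no block.

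The members, lists and tests were chosen with earlier results of these data known, and the endothelial and pericyte lists after the values were seen. Genes of other lists were named by rule: the called gene with the largest difference in OIR WT against RA WT in each direction. Those of the cone, endothelial and pericyte lists, and the astrocyte marker that fell, were left out. Alternatives were another pseudocount, filter and scaling, a fit of 2 groups, no trend, a Y-linked covariate, a replicate block and each library left out.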

Additional observations from a re-analysis of the deposited data

How the results depend on the processing

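The count of members that fell in OIR WT against RA WT (18) was 11 with the Y-linked covariate and between 11 and 19 with a library left out. It was 17 at a pseudocount of 0.1, where Opn4 was lost (adjusted p = 0.0566 by limma). Without the filter on low values it was 16, where Pou4f1 (0.0557) and Opn4 (0.0692) were lost. Scaled to an equal total per library (TPM) it was 16, where Opn4 (0.0577) and Ebf3 (0.0505) were lost. In OIR KO against RA WT the count (20) was between 13 and 23 with a library left out, and these other settings lost no call. With the replicate block 14 members were called in OIR WT against RA WT, where Opn4, Ebf1, Ebf3 and Tbr1 were lost, and 20 in OIR KO against RA WT; shared replicate numbers did not pair the libraries. Over all genes, the 2503 calls in OIR WT against RA WT became 1581 with the Y-linked covariate and 1039 to 2778 with a library left out. The 1636 calls in OIR KO against RA WT became 1090 in a fit of only these groups, 1081 with the replicate block and 697 to 1792 with a library left out. The 21 calls in OIR KO against OIR WT became 13 at a mean of at least 1 FPKM, 13 without trend and robust options, 8 with the replicate block and 7 to 42 with a library left out. The cause was not tested.

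Differences near 0 in OIR KO against OIR WT changed sign. Chrnb3 was -0.003 under TMM scaling and Kcnd2 was -0.018 with the Y-linked covariate. With a library left out, the log2 difference ranged from -0.29 to 0.106 for Chrna6, -0.174 to 0.196 for Chrnb3, -0.209 to 0.034 for Eomes, -0.03 to 0.108 for Kcnd2, -0.291 to 0.027 for Pou4f1, -0.219 to 0.008 for Pou4f2, -0.082 to 0.036 for Rbpms, -0.057 to 0.099 for Scn1a, -0.359 to 0.099 for Sncg, -0.229 to 0.066 for Stmn2, -0.162 to 0.229 for Stmn3, -0.225 to 0.086 for Trarg1 and -0.063 to 0.185 for Uchl1. In OIR KO against RA WT, Tppp3 ranged from -0.345 to 0.083. No other member changed sign in these alternatives. The depth of the libraries is unknown, so the precision of the lowest genes, such as Tbr1, cannot be given from counts.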

Other observations

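Glial genes, which stand outside the ganglion cell list, moved in both directions. Of 18 Müller glia markers, 8 fell and 4 rose in OIR WT against RA WT (median log2 difference -0.55, limma). Over all tested genes 7.92% fell and 8.04% rose. Abca8a, a lipid transporter, was at 22.3, 16.2 and 22.2 FPKM in OIR KO, 10.8, 18.0 and 10.6 FPKM in OIR WT, and 37.1, 45.4 and 36.1 FPKM in RA WT, and fell in OIR WT by 1.59 (adjusted p = 0.00278). Crym, a thyroid hormone-binding crystallin, was at 147.9, 257.5 and 105.6 FPKM in OIR KO, 242.3, 107.8 and 210.6 FPKM in OIR WT, and 39.7, 59.5 and 60.5 FPKM in RA WT, and rose in OIR WT by 1.75 (adjusted p = 0.0216).

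Of 6 tested astrocyte markers, 3 rose and 1 fell in OIR WT against RA WT, beside 8.04% and 7.92% of all tested genes. Gfap, the glial intermediate filament that Müller cells also make under stress, was at 45.5, 172.7 and 24.3 FPKM in OIR KO, 126.1, 46.8 and 147.7 FPKM in OIR WT, and 7.36, 6.78 and 17.7 FPKM in RA WT. It rose in OIR WT (3.25, SE 0.75, adjusted p = 0.024) and was not called in OIR KO (2.52, SE 0.75, adjusted p = 0.0695). Within OIR KO, the library with the highest Gfap, OIR KO 2, had the lowest ganglion cell values. It also had the lowest summed rod, bipolar, horizontal cell and amacrine markers of its group. Within OIR WT and RA WT this order was not seen. OIR WT 2 had the lowest Gfap and the lowest ganglion cell values. RA WT 3 had the highest Gfap and the highest summed level of the members (1276.5 FPKM). A relation between Gfap and the ganglion cell values was not tested.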
